A study of Rattus norvegicus with 12 samples.

Results

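The mature microRNA rno-miR-150-5p was followed across 12 small RNA libraries of rat serum. It was taken by name from a table of 752 mature microRNA names, 366 of which had values high enough to test, and it was 1 of those 366. Its partner from the other arm of the same hairpin, miR-150-3p, also passed the filter and is described beside it.

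The serum came from male Sprague-Dawley rats aged 7 weeks. Each drug was given as a single oral dose, and every group was dosed in sterile distilled water. The control group received the water alone. The CAF group received caffeine, a stimulant that blocks adenosine receptors, at 180 mg/kg. The DEX group received dextromethorphan hydrobromide monohydrate, a cough suppressant that blocks NMDA-type glutamate receptors, at 200 mg/kg. The CAF+DEX group received 180 mg/kg caffeine and, 1 h later, 200 mg/kg dextromethorphan hydrobromide monohydrate, and blood was drawn 1 h after that dose. The design gives 5 rats per group, and 3 libraries per group were analysed here. Nothing in the labels says whether the libraries are separate animals, so each p-value reflects only how far these libraries varied.

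A microRNA is a short RNA cut from a hairpin, and 1 arm of the hairpin is usually retained to guide silencing of messenger RNAs while the other is mostly lost. miR-150-5p is the retained arm of its hairpin. It is abundant in mature B and T lymphocytes and natural killer cells, it is known for lowering the transcription factor Myb during lymphocyte development, and lymphocytes and other blood cells release it into serum in vesicles and protein complexes. The libraries measured serum and not cells, so they do not show which cells an RNA came from.

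On the rn6 build the deposited table places miR-150-5p on chromosome 1 at 101115989 to 101116010 on the plus strand, 22 nucleotides long. It places miR-150-3p 3' of it at 101116025 to 101116043, 19 nucleotides long. Each arm was listed at 1 locus. In the RefSeq annotation of the GRCr8 assembly no other gene overlaps the Mir150 hairpin gene.

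Of the 6 mature sequences looked up, those of miR-150-5p and the 5 microRNAs whose levels ran most nearly alongside it, 5 had an entry in the RefSeq table for GRCr8. They are shown because the seed, bases 2 to 8 (capitals), is the part that pairs with targets and defines a microRNA family.
miR-187-3p: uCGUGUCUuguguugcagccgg
miR-146a-5p: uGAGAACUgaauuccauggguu
miR-155-5p: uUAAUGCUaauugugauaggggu
miR-532-3p: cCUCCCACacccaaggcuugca
miR-342-3p: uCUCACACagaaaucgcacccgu
The name without an entry was miR-150-5p, so its seed was not compared with the others. The 5 seeds all differed from one another. Among 693 mature names with a sequence, only the seed of miR-146a-5p was carried by more than 1 name (2 names).

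Values are FPKM, fragments scaled for microRNA length and library total, here relative to the reads assigned to microRNAs. More miR-150 and less of the other microRNAs therefore cannot be told apart by level alone, nor can release from more cells and more release per cell. The libraries held between 403913 and 2625593 assigned reads. The DEX libraries held 403913 to 895792, the CAF+DEX libraries 758290 to 1160717, the CAF libraries 1504963 to 1842796 and the control libraries 1304868 to 2625593. An earlier look at these data had found DEX2 and DEX3 to differ from the rest, and they held the fewest reads. For miR-150-5p this depth was ample: the shallowest library, DEX3, still held 7331 of its reads, 1.82% of the library with an exact binomial 95% interval of 1.77% to 1.86%. Such intervals cover counting error only and were far narrower than the spread between libraries.

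In serum of control rats miR-150-5p took about 1 read in 100, and its level was higher in every treated library. In the control libraries it stood at 318029 FPKM in ctrl1, 430633 FPKM in ctrl3 and 650815 FPKM in ctrl5. In the CAF libraries it stood at 1162738 FPKM in CAF3, 854347 FPKM in CAF4 and 1765537 FPKM in CAF5. All of the CAF libraries lay above all of the control libraries. How many of all tested names lay apart in this way, here or between other groups, was not counted.

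In the DEX libraries miR-150-5p stood at 663151 FPKM in DEX1, 1044434 FPKM in DEX2 and 824998 FPKM in DEX3. These lay within or below the range of the CAF libraries and above the control libraries, though DEX1 and ctrl5 all but touched. In the CAF+DEX libraries it stood at 2137834 FPKM in CAFDEX2, 2525060 FPKM in CAFDEX3 and 1616751 FPKM in CAFDEX6. They were above all control and DEX libraries and overlapped the CAF group, where CAF5 was higher than CAFDEX6.

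The order of the group means was control, DEX, CAF and CAF+DEX. As a share of assigned reads the means were 1.03% ± 0.372 (SD, n = 3) in control, 1.86% ± 0.421 in DEX, 2.77% ± 1.02 in CAF and 4.61% ± 1.0 in CAF+DEX. The neighbours DEX and CAF overlapped, as did CAF and CAF+DEX. Among all names in a library miR-150-5p ranked 13 to 22 by FPKM in control, 9 to 13 in DEX, 6 to 10 in CAF and 4 to 7 in CAF+DEX. The coefficient of variation within a group was 36.3% in control, 36.8% in CAF, 22.7% in DEX and 21.8% in CAF+DEX.

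**Figure D1:**
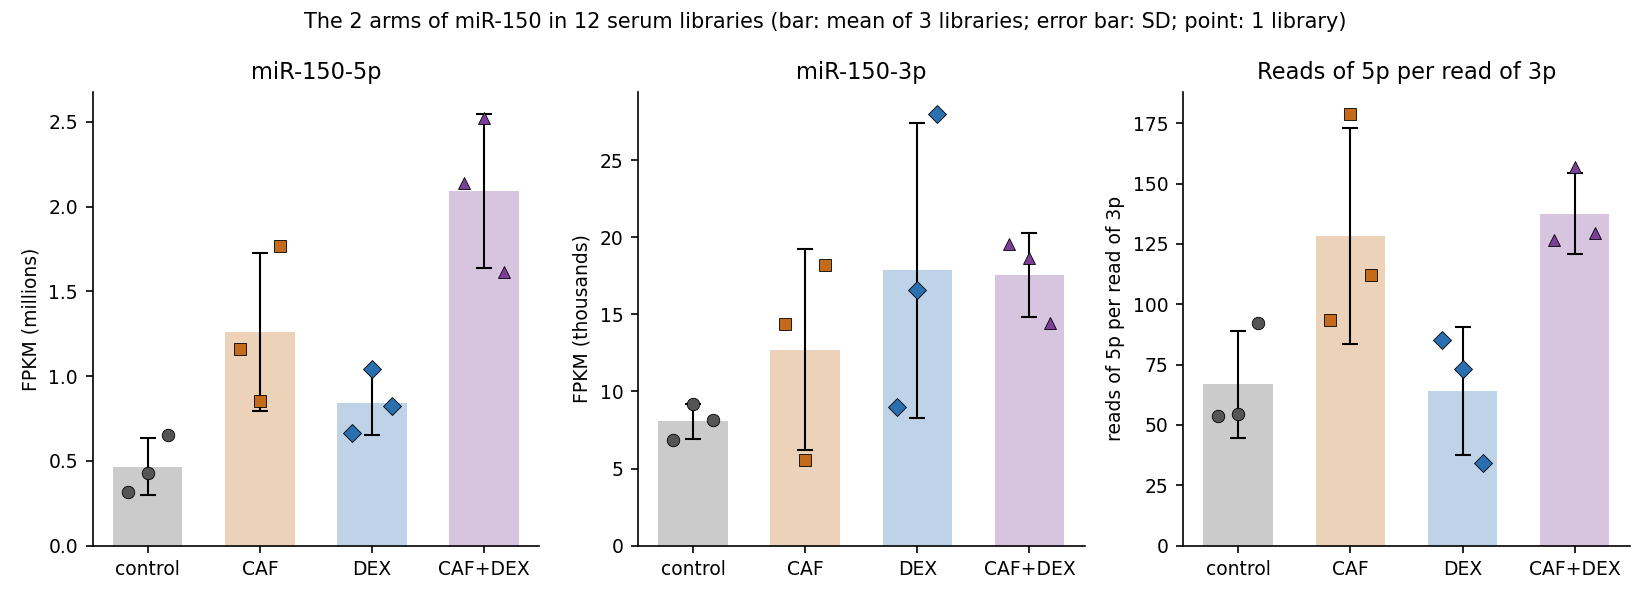
Level of miR-150-5p (left, FPKM), level of miR-150-3p (middle, FPKM) and reads of the 5p arm per read of the 3p arm (right) in the 4 groups. Bars are means of 3 libraries, error bars are SD and each point is 1 library; the CAF+DEX points of miR-150-5p all lie above those of control and DEX, and the 6 libraries with caffeine lie above the 6 without it in the right panel.

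The contrast of CAF with control asks what caffeine alone did to the serum profile. miR-150-5p was 2.7-fold higher (95% interval 1.7 to 4.28), a log2 difference of 1.43 ± 0.31 (SE, n = 3 per group), and it passed the test (limma, Benjamini-Hochberg adjusted p = 0.0137). It was 1 of 25 names called higher, 6.83% of those tested, while 1.09% were called lower. By size it ranked 35 of 366 and by p-value 8. The call was lost without ctrl1 (log2 difference 1.19, limma adjusted p = 0.0887), without ctrl3 (1.41, adjusted p = 0.0869) and without CAF5 (1.16, adjusted p = 0.0957).

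After dextromethorphan alone the difference from control did not pass the test. The estimate was 1.86-fold (95% interval 1.17 to 2.95), a log2 difference of 0.89 ± 0.31 (n = 3 per group, SE; limma adjusted p = 0.0608). In this contrast 11.5% of tested names were called higher and 0.546% lower, and the median over all names was itself 0.47 on the log2 scale. The difference passed without ctrl5 (1.16, limma adjusted p = 0.0354) and without DEX1 (1.06, adjusted p = 0.0424). Without DEX2 and DEX3 it was 0.57 (adjusted p = 0.461).

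After both drugs miR-150-5p rose 4.61-fold over control (95% interval 2.91 to 7.31). The log2 difference was 2.20 ± 0.31 (n = 3 per group, SE; limma adjusted p = 0.00118). It ranked the third of 366 names by size and the first by p-value, in a contrast where 6.56% of names were called higher and 4.37% lower. Leaving out each library in turn gave log2 differences of 1.96 to 2.48, all of which passed (limma adjusted p up to 0.0135).

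The levels of all tested names shifted with the scaling of the libraries. Relative to the median log2 difference of all 366 names, miR-150-5p stood 1.25 above it in CAF, 0.42 above it in DEX and 1.96 above it in CAF+DEX. Median-of-ratios scaling moved that median from 0.19 to -0.04 in CAF, from 0.47 to 0.11 in DEX and from 0.24 to 0.09 in CAF+DEX. With that scaling the names called higher and lower were 12 and 7 in CAF (25 and 4 as deposited), 15 and 19 in DEX (42 and 2) and 19 and 25 in CAF+DEX (24 and 16). miR-150-5p kept its calls under it, at 1.18 in CAF (limma adjusted p = 0.0314) and 2.04 in CAF+DEX (adjusted p = 0.00179), and stood at 0.48 in DEX (adjusted p = 0.274).

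Between treated groups, the contrast of CAF+DEX with DEX asks what caffeine added to dextromethorphan. miR-150-5p was 2.48-fold higher with caffeine (95% interval 1.56 to 3.93), a log2 difference of 1.31 ± 0.31 (n = 3 per group, SE; limma adjusted p = 0.0244). It was the only name called higher in this contrast, 0.273% of those tested, while 12 names were called lower. With median-of-ratios scaling the counts were 6 higher and 11 lower. The call was lost without DEX1 (1.15, limma adjusted p = 0.0614), DEX3 (1.31, adjusted p = 0.0851), CAFDEX2 (1.28, adjusted p = 0.0857) or CAFDEX3 (1.16, adjusted p = 0.0949), and without both DEX2 and DEX3 (1.63, adjusted p = 0.0871).

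What dextromethorphan added to caffeine did not pass the test. The level of miR-150-5p in CAF+DEX was 1.71 times that in CAF (95% interval 1.08 to 2.71; log2 difference 0.77 ± 0.31, SE, limma adjusted p = 0.786). No name passed in this contrast (0.0% of 366), 22 names had an unadjusted p under 0.05, and limma's voom on recovered reads also called 0. DEX stood at 0.688 times the level of CAF (95% interval 0.434 to 1.09; limma adjusted p = 0.479), in a contrast where 2.46% of names passed in either direction.

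The interaction is the log2 difference made by caffeine in the presence of dextromethorphan minus that made by caffeine alone. For miR-150-5p it was -0.12 ± 0.44 (SE; 95% interval -1.06 to 0.82; limma adjusted p = 0.916). Of all tested names 4.64% passed for the interaction, and the median was -0.39. The interval of miR-150-5p allows a departure of nearly 1 log2 unit either way, and the sign of the estimate turned under several alternative settings.

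Averaging each drug over the presence of the other uses all 12 libraries, and these contrasts were added after the data had been seen. Caffeine raised miR-150-5p by 1.37 ± 0.22 on the log2 scale, 2.59-fold (95% interval 1.87 to 3.59; limma adjusted p = 0.00528), where 2.46% of names were called higher. It had the lowest p-value of the 366 names and passed under each of the 23 alternative settings, at 1.23 to 1.53. Dextromethorphan raised it by 0.83 ± 0.22, 1.78-fold (95% interval 1.28 to 2.47; limma adjusted p = 0.0466), where 3.28% of names were called higher. That call was lost under 17 of 23 settings, among them the removal of ctrl1, ctrl3, CAF3, CAF4, DEX2, DEX3, CAFDEX2 or CAFDEX3, with limma adjusted p of 0.0935 to 0.157 in those 8 fits.

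**Figure D2:**
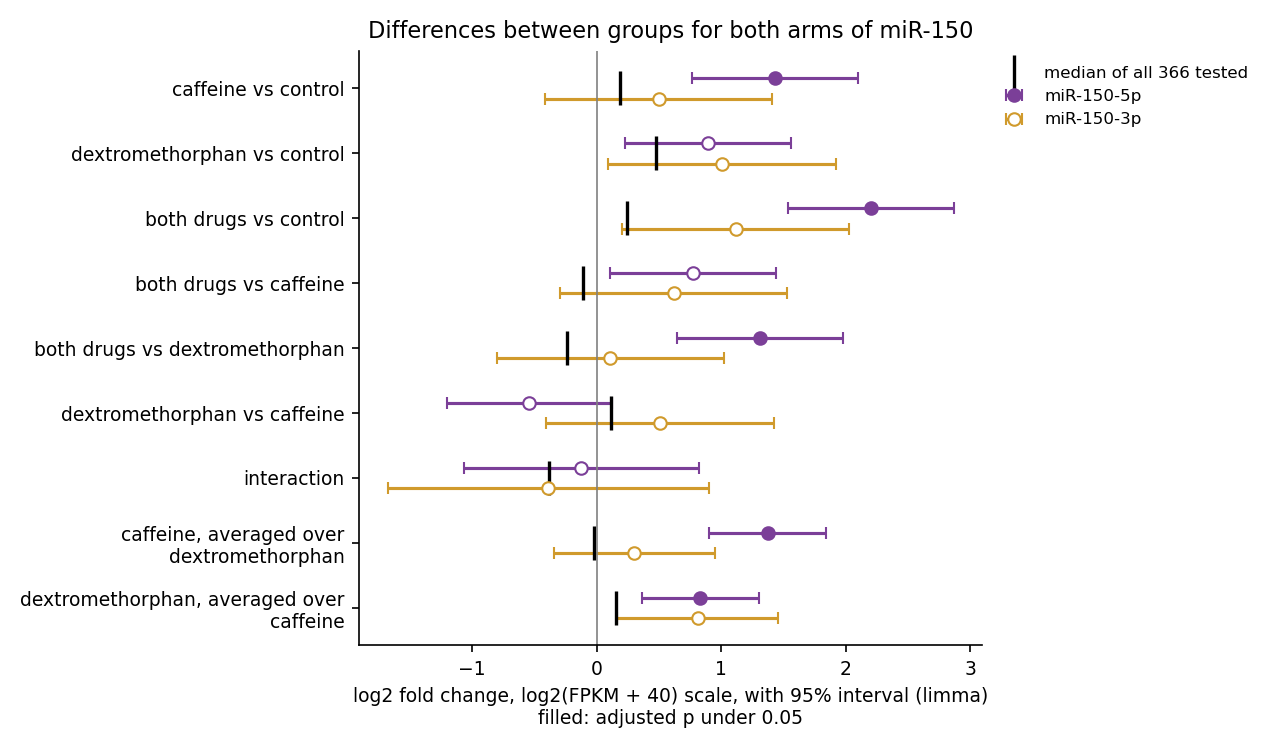
Log2 fold change of miR-150-5p and miR-150-3p in each contrast, with 95% intervals from limma on the log2(FPKM + 40) scale; filled points passed at an adjusted p under 0.05 and black ticks are the median of all 366 names. The 5p arm passes in caffeine, both drugs, both drugs against dextromethorphan and both averaged contrasts, and the 3p arm passes in none.

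The 3p arm was far rarer, and its levels overlapped between every pair of groups except control and CAF+DEX. In control it stood at 6866, 9161 and 8161 FPKM in ctrl1, ctrl3 and ctrl5. In CAF it stood at 14397, 5527 and 18203 FPKM in CAF3, CAF4 and CAF5. The CAF group was split, with CAF4 below every control library and the other two above them.

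In DEX the 3p arm stood at 9019, 16553 and 28015 FPKM in DEX1, DEX2 and DEX3. In CAF+DEX it stood at 19568, 18636 and 14465 FPKM in CAFDEX2, CAFDEX3 and CAFDEX6. The highest of all 12 values was in DEX3, the shallowest library, and the CAF+DEX libraries lay above all controls. These levels rest on 139.5 to 520.5 recovered reads per library, and the recovered reads were not whole numbers in every library.

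No contrast of miR-150-3p passed. Its log2 difference from control was 0.50 ± 0.43 (n = 3 per group, SE; limma adjusted p = 0.502) in CAF, 1.01 ± 0.43 (adjusted p = 0.117) in DEX and 1.12 ± 0.43 (adjusted p = 0.103) in CAF+DEX. Against DEX the CAF+DEX group differed by 0.11 ± 0.43 (limma adjusted p = 0.923), where the 5p arm differed by 1.31.

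The ratio of the arms does not depend on the total of other microRNAs. There were 53.6, 54.4 and 92.3 reads of 5p per read of 3p in ctrl1, ctrl3 and ctrl5, and 85.1, 73.1 and 34.1 in DEX1, DEX2 and DEX3. There were 93.5, 179 and 112 in CAF3, CAF4 and CAF5, and 127, 157 and 129 in CAFDEX2, CAFDEX3 and CAFDEX6. Every library with caffeine had a higher ratio than every library without it, although the lowest of them, CAF3, was close to the highest of the others, ctrl5. How many other hairpins have arm ratios that separate in this way was not counted.

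Each drug was tested within the levels of the other by an exact permutation test over 400 arrangements, two-sided, with 6 such tests adjusted together; these tests were added after the data had been seen. On the per-length scale the 5p to 3p ratio was 2.10-fold higher with caffeine (log2 difference 1.07, exact p = 0.005, adjusted 0.015). The p is the smallest this design can give, and the difference was 0.94 without dextromethorphan and 1.2 with it. Leaving out each library gave 0.87 to 1.2, all of which passed. Dextromethorphan moved the ratio by 0.02 (exact p = 0.97, adjusted 0.97). Over the 4 groups at once, an exact permutation test gave unadjusted p = 0.036 for the ratio. The same test gave 0.205 for the level of miR-150-3p and 0.00104 for that of miR-150-5p.

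For the levels themselves, the same exact permutation test gave p = 0.005 (adjusted 0.015) for caffeine on miR-150-5p and p = 0.015 (adjusted 0.03) for dextromethorphan. On miR-150-3p the exact permutation p was 0.4 (adjusted 0.48) for caffeine. For dextromethorphan on miR-150-3p the log2 difference was 0.81 (exact p = 0.03, adjusted 0.045), and this was lost on leaving out 9 of the 12 libraries in turn (adjusted p 0.0525 to 0.15); it remained under 0.05 without CAF3, CAF5 or DEX1. The dextromethorphan difference of miR-150-5p reached an adjusted exact p of 0.05 to 0.06 without ctrl1, CAF4, DEX2, DEX3, CAFDEX2 or CAFDEX3.

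Because FPKM is relative, miR-150-5p was also set against 9 other microRNAs of the same library, among them the often-used serum references miR-191a-5p, miR-16-5p, miR-23a-3p and miR-103-3p. Over the 4 groups, 8 of the 9 ratios differed by an exact permutation test of 15400 splits with Benjamini-Hochberg adjustment. Leaving out a library or changing the pseudocount gave 7 or 8. The 9 ratios share miR-150-5p as numerator, so they are not 9 separate results. Other microRNAs were not tried as numerator. All 9 were higher in CAF+DEX than in each other group on the group means, and an exact permutation test of 3 libraries against 3 cannot go below p = 0.1.

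Against miR-103-3p, a broadly expressed microRNA, the log2 ratio of miR-150-5p was 2.3 ± 0.62 (SD, n = 3) in control, 3.35 ± 0.38 in DEX, 4.27 ± 0.48 in CAF and 5.13 ± 0.35 in CAF+DEX. No pair of groups overlapped (exact permutation p = 6.49e-05, the smallest that the splits can give; adjusted 0.000584). Relative to control the ratio was 3.93 times as high in CAF, 2.07 times in DEX and 7.14 times in CAF+DEX. The level of miR-150-5p alone was 2.7, 1.86 and 4.61 times control in the same order. Part of each ratio therefore reflects a lower miR-103-3p in FPKM.

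Against miR-191a-5p, the most abundant of the denominators, the ratio was 3.17, 2.96 and 6.66 times control in CAF, DEX and CAF+DEX (exact permutation p = 0.00149, adjusted 0.00448). Against miR-16-5p, abundant in red cells and platelets, it was 2.83, 1.58 and 3.81 times control (exact permutation p = 0.00052, adjusted 0.00234). Against miR-23a-3p it was 2.96, 2.03 and 6.20 times control (exact permutation p = 0.00474, adjusted 0.0061). With each of these denominators the CAF+DEX libraries lay above all control and all DEX libraries. The level of miR-150-5p alone was 2.7, 1.86 and 4.61 times control. The ratios to miR-191a-5p and miR-23a-3p were larger than that in every treated group, so these denominators were themselves lower in FPKM. miR-16-5p differed from control by -0.07, 0.23 and 0.27 on the log2 scale in CAF, DEX and CAF+DEX, none of which passed.

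The ratios to blood cell microRNAs separated CAF from DEX less evenly. Against miR-223-3p, a microRNA of granulocytes and monocytes, miR-150-5p was 3.11, 2.93 and 5.37 times control in CAF, DEX and CAF+DEX (exact permutation p = 0.00318, adjusted 0.00477). Against miR-142-3p, found in all blood-forming lineages, it was 3.17, 0.958 and 4.23 times control (exact permutation p = 0.0026, adjusted 0.00468). Against miR-342-3p, another lymphocyte microRNA, it was 2.25, 1.99 and 2.91 times control (exact permutation p = 0.00214, adjusted 0.00468).

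Against miR-451-5p, which is made in red cells, the ratio was 1.71, 0.538 and 2.13 times control in CAF, DEX and CAF+DEX (exact permutation p = 0.0104, adjusted 0.0117). Against the hepatocyte microRNA miR-122-5p it was 0.785, 0.596 and 1.34 times control and did not pass (exact permutation p = 0.222).

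**Figure D3:**
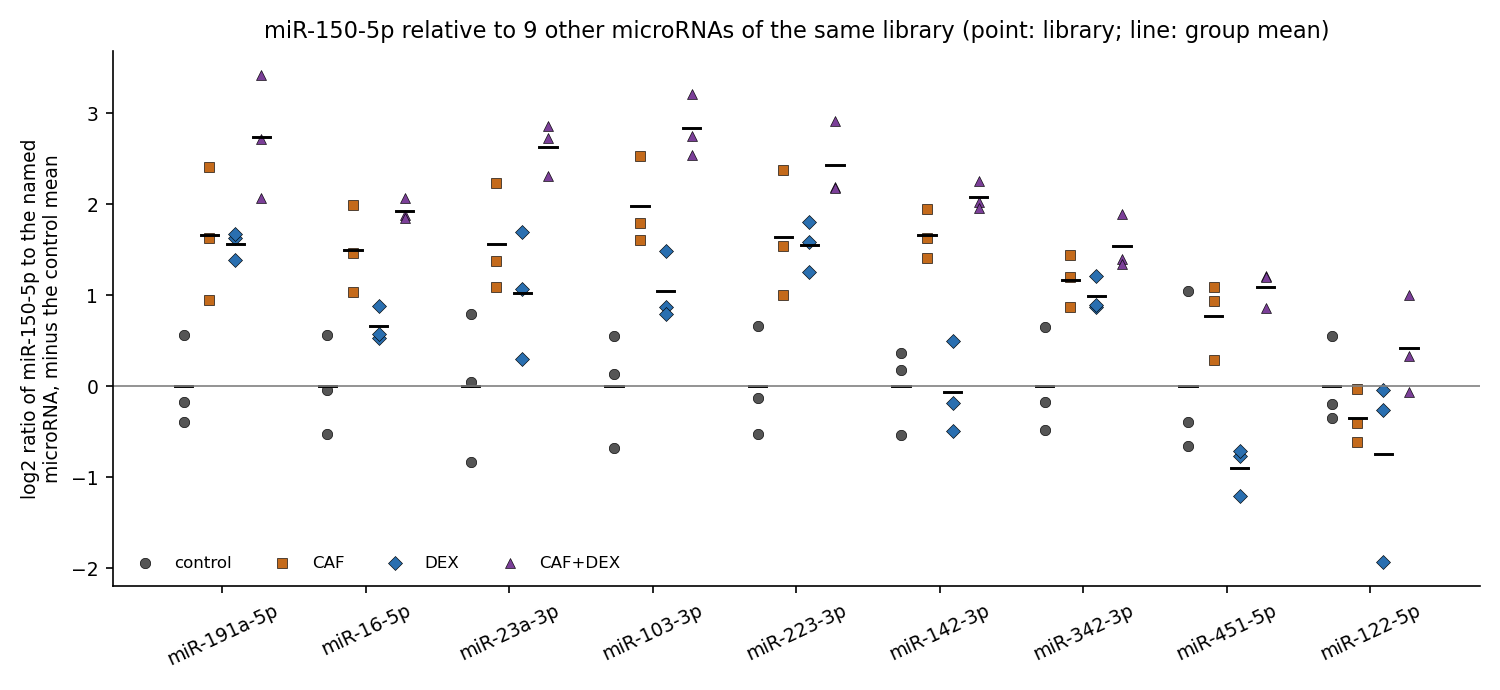
Log2 ratio of miR-150-5p to each of 9 other microRNAs of the same library, with the control mean of each ratio set to 0. Points are libraries and lines are group means. The CAF+DEX points lie above all control points for 7 of the 9 denominators, and the DEX points lie lowest for miR-451-5p. All 9 ratios share miR-150-5p as numerator, and other numerators were not tried.

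Of 11 other names on a list of lymphocyte microRNAs, all tested, 1 rose and 1 fell in CAF, where 6.83% of all names were called higher and 1.09% lower. In DEX 1 of the 11 rose and 0 fell, beside 11.5% and 0.546% of all names. In CAF+DEX 2 of the 11 rose and 1 fell, beside 6.56% and 4.37%. With miR-150-5p included, the median of the 12 was 0.30, 0.53 and 0.72 in these contrasts, beside 0.19, 0.47 and 0.24 for all names. Against DEX the CAF+DEX group had 1 list member higher, miR-150-5p itself, and against CAF none.

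miR-146a-5p, which restrains Toll-like receptor signalling, rose in CAF by 1.18 ± 0.33 on the log2 scale (SE, limma adjusted p = 0.0419) and in CAF+DEX by 1.89 ± 0.33 (adjusted p = 0.0039). Its level averaged 175100 FPKM ± 51570 (SD, n = 3) in control and 678900 ± 312500 in CAF+DEX. miR-155-5p, induced when lymphocytes and macrophages are activated, rose in CAF+DEX by 1.89 ± 0.36 (SE, limma adjusted p = 0.0074), from 12720 FPKM ± 4189 (SD, n = 3) to 46310 ± 8373. In DEX the values were 0.68 (limma adjusted p = 0.163) for miR-146a-5p and 0.95 (adjusted p = 0.0849) for miR-155-5p.

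The miR-181 family, which tunes T cell receptor sensitivity, was divided. miR-181a-5p rose in DEX by 1.05 ± 0.30 (SE, limma adjusted p = 0.0352). miR-181d-5p fell by 1.55 ± 0.39 in CAF (SE, limma adjusted p = 0.0308) and by 1.52 ± 0.39 in CAF+DEX (adjusted p = 0.0296), on as few as 24.5 reads in a library. miR-181b-5p and miR-181c-5p passed in none of the contrasts with control.

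miR-342-3p, near the mean level of miR-150-5p in control serum (476800 FPKM ± 37210 against 466492 ± 169266, SD, n = 3), stood at 0.66 ± 0.21 in CAF+DEX (SE, limma adjusted p = 0.0581). The other list members, miR-342-5p, miR-28-5p and miR-363-3p, passed in no contrast with control, and miR-28-5p was at 0 in at least 1 DEX library.

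Leaving out 1 library ended several of these calls. For miR-146a-5p in CAF it was ctrl1, ctrl3, CAF3, CAF4, CAF5 or DEX3 (limma adjusted p 0.0545 to 0.188), and for miR-155-5p in CAF+DEX it was ctrl1 or CAFDEX2 (adjusted p 0.0503 and 0.0516). For miR-181a-5p it was any control library, DEX2, DEX3 or CAFDEX2 (limma adjusted p 0.0515 to 0.152). That call was lost under 13 of 24 settings, among them median-of-ratios scaling (0.64, limma adjusted p = 0.0997), quantile normalization (0.24, adjusted p = 0.58) and scaling without miR-191a-5p (0.79, adjusted p = 0.0748). For miR-181d-5p it was ctrl1, ctrl3, CAF4 or CAF5 in CAF (limma adjusted p 0.0985 to 0.149) and ctrl1, ctrl3, CAFDEX2 or CAFDEX3 in CAF+DEX (adjusted p 0.068 to 0.176). The call of miR-146a-5p in CAF was lost under 13 of 24 settings, among them median-of-ratios scaling (0.93, limma adjusted p = 0.0785), quantile normalization (1.08, adjusted p = 0.12) and scaling without miR-191a-5p (1.08, adjusted p = 0.0557). Its rise in CAF+DEX passed without each library and was lost with a haemolysis index (miR-451-5p over miR-23a-3p) as a covariate (1.31, limma adjusted p = 0.509). The other calls of this paragraph were lost with that covariate too, among them miR-155-5p in CAF+DEX (1.15, limma adjusted p = 0.661).

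A list of 8 general white cell and myeloid microRNAs was read beside the same shares of all names. In CAF and DEX 0 of the 8 passed. In CAF+DEX 1 rose and 2 fell, where 6.56% of all names were called higher and 4.37% lower: miR-147 rose by 1.86 ± 0.51 (SE, limma adjusted p = 0.0357), miR-223-5p fell by 0.86 ± 0.25 (adjusted p = 0.0441) and miR-652-3p fell by 1.71 ± 0.41 (adjusted p = 0.0192). miR-147 rests on as few as 5 reads in a library. miR-223-3p differed from control by -0.20, -0.66 and -0.22 in CAF, DEX and CAF+DEX, and miR-142-3p by -0.23, 0.96 and 0.12, none of which passed.

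Single libraries ended each of these 3 calls as well. They were ctrl1, ctrl3, CAF5, CAFDEX2 or CAFDEX3 for miR-147 (limma adjusted p 0.0528 to 0.176) and ctrl1, ctrl3, CAFDEX2 or CAFDEX3 for miR-652-3p (adjusted p 0.0612 to 0.16). For miR-223-5p they were any control or CAF library, CAFDEX2 or CAFDEX3 (limma adjusted p 0.0502 to 0.176).

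**Figure D4:**
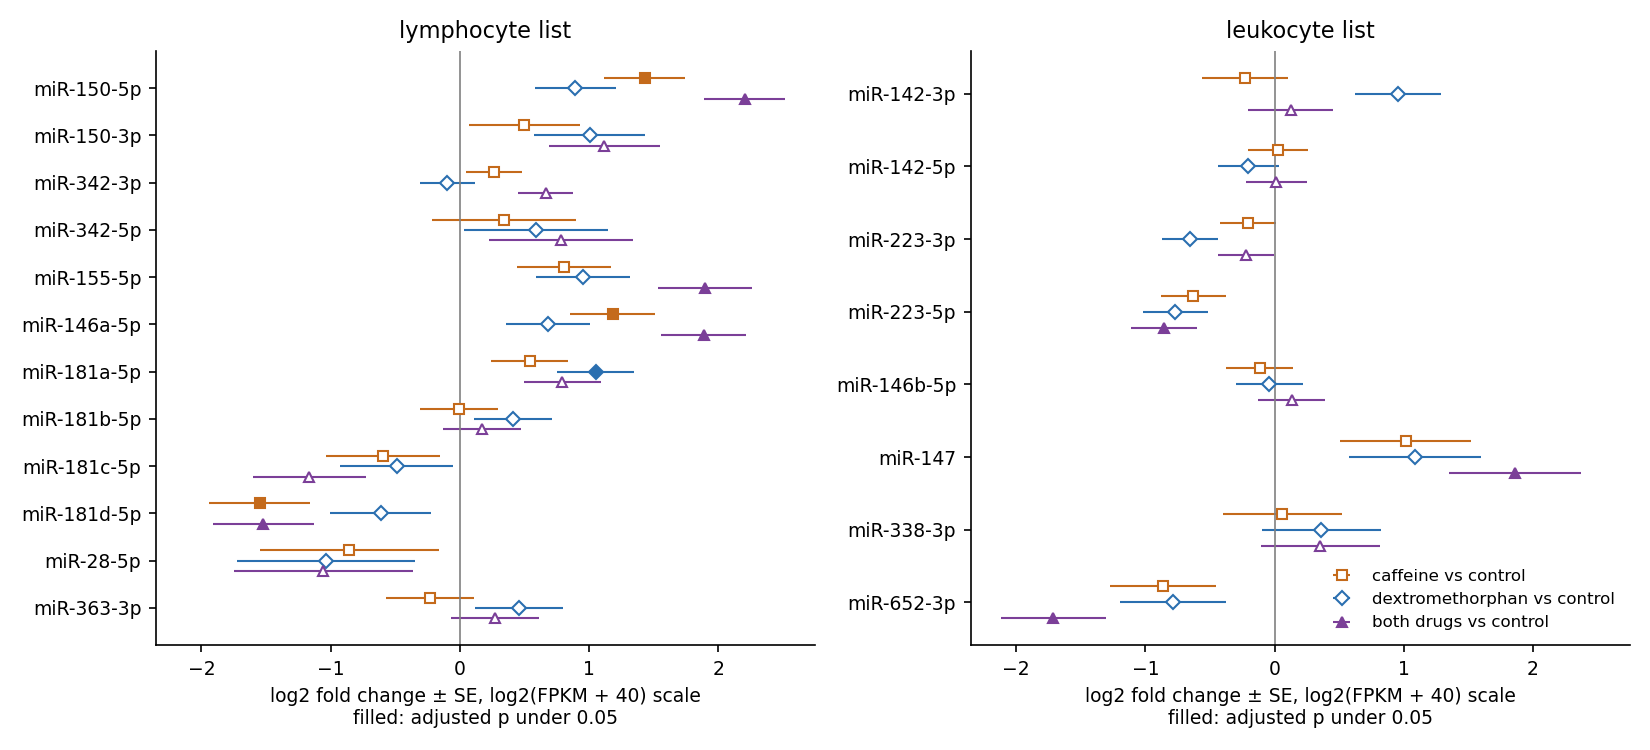
Log2 fold change against control of each microRNA on the lymphocyte list (left, 12 names) and on the list of general white cell and myeloid microRNAs (right, 8 names), for caffeine, dextromethorphan and both drugs. Points are limma estimates with SE on the log2(FPKM + 40) scale and filled points passed at an adjusted p under 0.05; miR-150-5p has the highest value of either list in CAF and CAF+DEX.

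The summed shares of the blood cell lists were compared by range only. Without miR-150-5p the lymphocyte list summed to 1.54% to 1.63% of reads in control, 1.90% to 2.66% in CAF, 1.46% to 1.99% in DEX and 2.59% to 4.44% in CAF+DEX. The white cell and myeloid list summed to 6.70% to 7.50%, 5.68% to 6.76%, 4.39% to 6.08% and 5.55% to 7.70% in the same order. A list of 8 platelet microRNAs summed to 0.513% to 0.713%, 0.868% to 0.940%, 0.983% to 1.25% and 0.632% to 2.11%. The lymphocyte sums of CAF and CAF+DEX and the platelet sums of CAF and DEX lay above those of control, and the white cell sums of DEX lay below. The other white cell sums, the lymphocyte sums of DEX and the platelet sums of CAF+DEX overlapped control. Most of the lymphocyte sum came from miR-342-3p (mean 476800 FPKM in control, 758100 in CAF+DEX) and miR-146a-5p (175100 and 678900). No other member averaged more than the 46310 FPKM of miR-155-5p in CAF+DEX. How many of all names lay apart from control in this way was not counted. No member of these lists was at 0 in all libraries, and their part in the rise of miR-150-5p was not tested.

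Of 8 red cell microRNAs on a list, 7 were in the table and tested. In CAF 0 rose and 1 fell (6.83% and 1.09% of all names), in DEX 3 rose and 0 fell (11.5% and 0.546%), and in CAF+DEX 1 rose and 1 fell (6.56% and 4.37%). The 3 in DEX were miR-451-5p, miR-451-3p and miR-144-5p, all of the shared miR-144 and miR-451 locus, and miR-451-3p held as few as 2 reads in control. The more abundant miR-16-5p, miR-25-3p and miR-92a-3p stood at 0.23, 0.39 and -0.82 in DEX and did not pass. The sum of the 7 names was 12.3% to 14.5% of reads in control, 11.2% to 11.9% in CAF, 12.7% to 15.2% in DEX and 12.1% to 15.4% in CAF+DEX, with none at 0. The sums of DEX and CAF+DEX overlapped control and those of CAF lay below it. The haemolysis index sets miR-451-5p, a red cell microRNA, over miR-23a-3p on the log2 scale. It was -7.79 to -7.09 in control, -7.09 to -6.39 in CAF, -6.46 to -5.12 in DEX and -6.42 to -5.66 in CAF+DEX. All treated libraries had a higher index than all control libraries, though CAF3 and ctrl3 nearly touched, and DEX2 and DEX3 were the highest at -5.12 and -5.25. miR-451-5p rested on as few as 38 reads in a control library. A lower miR-23a-3p also raises the index, so it does not measure red cell content alone.

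With the index as a covariate in the fit, miR-150-5p differed from control by 1.12 in CAF (limma adjusted p = 0.138), 0.13 in DEX (adjusted p = 0.959) and 1.59 in CAF+DEX (adjusted p = 0.361), and the calls against control were lost. The SE of the CAF+DEX difference was 0.50 in that fit, beside 0.31 without the covariate. Because the index was higher in all treated than in all control libraries, index and treatment cannot be told apart in the contrasts with control. Over all names 5, 1 and 1 were called in CAF, DEX and CAF+DEX with the covariate, beside 29, 44 and 40 without it. In the same fit CAF+DEX stayed 1.46 above DEX (limma adjusted p = 0.0134) and the averaged caffeine difference was 1.29 (adjusted p = 0.00982).

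The microRNAs most like miR-150-5p were named as the 5 with the highest Pearson correlation of log2 values over the 12 libraries, among 182 names above the median level. These correlations are descriptions: the points share library, depth and group. miR-187-3p came first (r = 0.94, Spearman's rho = 0.97), followed by miR-146a-5p (0.93 and 0.96), miR-155-5p (0.88 and 0.87), miR-532-3p (0.81 and 0.83) and miR-342-3p (0.80 and 0.84). Without the 2 libraries farthest from the median of miR-150-5p, r was 0.92, 0.92, 0.85, 0.74 and 0.82 in that order. For deviations from the group means, which leave out the treatments, r was 0.69, 0.64, 0.67, 0.71 and 0.54.

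miR-187-3p, the nearest, was much rarer than miR-150-5p, at 35 to 202 reads per library. It averaged 1628 FPKM ± 177 (SD, n = 3) in control, 3491 ± 1011 in DEX, 4681 ± 1036 in CAF and 6855 ± 2095 in CAF+DEX. It rose in CAF by 1.48 ± 0.33 (SE, limma adjusted p = 0.0141) and in CAF+DEX by 2.00 ± 0.33 (adjusted p = 0.00351). The call in CAF was lost without ctrl1, ctrl3 or CAF5 (limma adjusted p = 0.073, 0.0869 and 0.0963), as it was for miR-150-5p. The call of miR-187-3p in CAF+DEX was lost under 1 of 24 settings, where limma adjusted p reached 0.596. miR-532-3p rose in DEX by 0.87 ± 0.26 (SE, limma adjusted p = 0.0413) and in CAF+DEX by 0.90 ± 0.26 (adjusted p = 0.0423), calls lost under 15 and 14 of 24 settings. Among those were the removal of ctrl1, ctrl3, any CAF library, CAFDEX2 and, in DEX, of DEX2 or DEX3 or, in CAF+DEX, of CAFDEX3 (limma adjusted p 0.0502 to 0.176).

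The partner arm miR-150-3p ranked 22 of the 182 names in this order, with r = 0.66. At the other end stood miR-92a-3p, a member of the miR-17-92 cluster that is abundant in red cells, with r = -0.90 and Spearman's rho = -0.88. It fell by 1.02 ± 0.29 in CAF (SE, limma adjusted p = 0.0419) and by 1.36 ± 0.29 in CAF+DEX (adjusted p = 0.0132). The call in CAF was lost without ctrl1, ctrl3, CAF4, CAF5, DEX3 or CAFDEX2 (limma adjusted p 0.0545 to 0.188) and that in CAF+DEX without ctrl1, ctrl3, CAFDEX2 or CAFDEX3 (adjusted p 0.0587 to 0.0971).

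**Figure D5:**
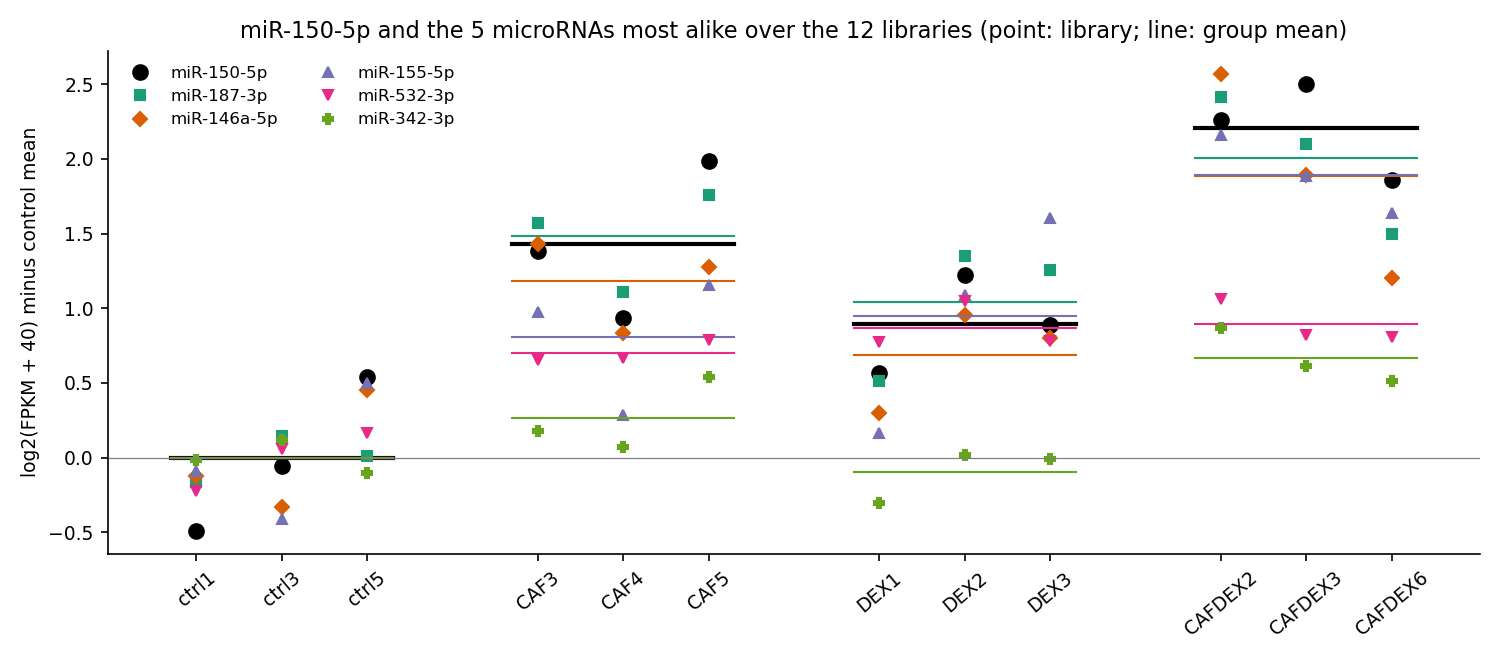
Log2(FPKM + 40) of miR-150-5p and the 5 microRNAs most alike in the 12 libraries, each minus its own control mean. Points are libraries and lines are group means; miR-150-5p and miR-187-3p run closest together, and miR-342-3p stays near its control level in CAF and DEX.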

How the data were processed

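The authors deposited FPKM values per mature microRNA, 1 column per library, from 200 uL of serum; the submitters' processing notes name the build rn6 and, without their steps, DESeq2 1.20.0, STAR 2.7.10a, cutadapt 3.7, Subread 2.0.1 and featureCounts. The library kit adds molecular indices, per the labels' protocols; any use of the indices to collapse duplicates is not stated there. Groups came from the column names, which also name the libraries.

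The table had 836 rows for 752 names; rows of the 69 names at several loci were summed. A name was tested if its mean reached 80 FPKM and 3 or more libraries were above 0 (366, holding 99.991% of FPKM). Differences were tested two-sided on log2(FPKM + 40) with limma 3.58.1 in R 4.3.3 (4 groups, mean-variance trend), with Benjamini-Hochberg adjustment over all 366 names and a threshold of 0.05; fold changes on this scale understate low values. The pseudocount was a rounded low percentile of the values above 0, taken per library and then as the median. Reads were recovered because 100% of values were multiples of 0.01 reads (tolerance 0.0001 of a step). Exact tests used Python 3.11.15 and numpy 2.4.6. The scripts were tested on simulated data. Alternatives were other pseudocounts, scalings, filters and tests, a haemolysis covariate and leaving out libraries.

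The microRNA, its lists and the tests were chosen with earlier results of these data known. The names in the text are both arms of miR-150, the lymphocyte and white cell lists, the 9 denominators and the 5 most correlated names; miR-92a-3p was added after its values were seen. Lists of liver, striated muscle and epithelial microRNAs were counted too: of 5, 4 and 7 members tested, 3, 3 and 1 were higher in CAF (6.83% of all names), 4, 1 and 6 in DEX (11.5%) and 2, 2 and 0 in CAF+DEX (6.56%), and none was lower.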

Additional observations from a re-analysis of the deposited data

How the results depend on the processing

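The rise of miR-150-5p after both drugs passed under 23 of 24 alternatives, the exception being the haemolysis covariate (1.59, limma adjusted p = 0.361); without single libraries it was 1.96 to 2.48. The caffeine call was lost without the mean-variance trend (1.43, adjusted p = 0.0641) and with the covariate (1.12), and without single libraries the difference was 1.16 to 1.7. For dextromethorphan that range was 0.65 to 1.16. CAF+DEX against DEX was lost with no filter (1.31, limma adjusted p = 0.0508), with no trend (1.31, adjusted p = 0.0694) and without DEX2 and DEX3 (1.63); without single libraries it was 1.15 to 1.49. The interaction turned sign with median-of-ratios scaling (0.38), without miR-191a-5p (0.038), with the covariate (0.34) and without DEX2 and DEX3 (0.20) and ran from -0.39 to 0.15 without single libraries. The dextromethorphan difference of the arm ratio ran from -0.11 to 0.22. Causes were not tested.

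Counts of calls over all names moved by more than 1.5 times: over the settings they ran from 4 to 65 in CAF (29 as reported), 1 to 74 in DEX (44) and 1 to 60 in CAF+DEX (40), the lowest in DEX and CAF+DEX with the covariate. Counts were 0 to 24 for CAF+DEX against DEX (13), 0 to 27 for DEX against CAF (9), 7 to 38 for the interaction (17), 4 to 32 for averaged caffeine (14) and 0 to 39 for averaged dextromethorphan (14). No paired analysis was possible because the numbers in the column names do not match those in the sample titles. miR-28-5p and miR-147 rest on 0 to 5 reads in at least 1 library.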
